A study of Mus musculus with 12 samples.

Results

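The response of wild-type splenic dendritic cells (DCs) to bacteria was measured across all genes of a deposited count table. DCs take up microbes and present their antigens to T cells. The comparison was chosen by the labels alone: the 3 libraries labelled WT splenic DCs treated against the 3 labelled WT splenic DCs control, 6 of the 12 libraries of the series. The table held 54532 genes, of which 14293 had enough counts to be tested. Treated cells came from WT C57BL6 mice and received STmDfla, an attenuated Salmonella typhimurium. One source gives a pulse of 30 min at a multiplicity of infection of 10, a wash and a chase of 3 h, and another gives 3 h of treatment. Control cells came from WT C57BL6 mice and were left untreated. The other 6 libraries came from SLC29A3-/- cells (KO here), treated in the same way (3) or untreated (3), and enter below only as a second response. Slc29a3 encodes ENT3, a nucleoside transporter of lysosomes. Before treatment all cells had been depleted of cells bearing CD90.2, CD45R or CD49b and selected on CD11c with magnetic beads, and the submitters describe the product as a mixture of cDC1 (conventional type 1 DCs, carrying CD8) and cDC2 (type 2, carrying SIRPα). Neither the age of the mice nor the number of animals per library is given in the sources used here. The labels do not say that the 3 libraries of a group come from separate animals, so the p-values describe variation among libraries, and the part of it between numbers 2 and 3 may be technical.

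As background, DCs recognise bacteria through Toll-like receptors at the cell surface and in endosomes and through sensors of nucleic acids in the cytosol. These receptors switch on NF-kB, a family of transcription factors that drives cytokine and survival genes, and interferon regulatory factors, which drive interferon β. Interferon β released from the cells acts back on them through STAT2 and IRF9 and raises a large set of antiviral and antibacterial genes. In parallel, DCs mature: they gain costimulatory molecules and the receptor CCR7, which guides them to T cell areas, and take up less new antigen.

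The WT libraries held 15693172 to 24074596 gene counts in treated and 16432936 to 18107470 in control cells. Levels are given as CPM (counts per 1000000 counts, scaled by TMM factors), in the order of libraries 1, 2 and 3. Differences are log2 of treated over control, so that a positive value means higher in treated cells. "Rose" and "fell" are used for genes with an edgeR adjusted p under 0.05, and means carry SDs of 3 libraries. The first principal component of the 6 libraries (47.9% of the variance) parted treated (-58.1 to -36.3) from control libraries (40.2 to 47.1). The second (21.1%) set the libraries numbered 1 (48.6 treated, 33.0 control) apart from numbers 2 and 3 (-31.9 to -10.5). In both groups number 1 had 0 counts of Xist and 5592 (treated) or 6238 (control) counts over 4 Y-linked genes, while numbers 2 and 3 had at least 11792 counts of Xist and no Y-linked count. Because each group holds 1 such library, they were kept, and counts without them are given where they moved. Markers of the DC label were present. Some markers of other spleen cells, such as Spic of red pulp macrophages and Cd79a of B cells, were also counted in all 6 libraries (given below). Being counted therefore does not by itself set DCs apart. Itgax, which encodes CD11c, was at 713, 787 and 668 CPM in treated and 809, 735 and 765 CPM in control libraries, and Flt3, Zbtb46, the cDC1 genes Xcr1 and Clec9a and the cDC2 genes Sirpa and Clec4a4 were counted in all 6. Slc29a3 itself had 197, 233 and 207 CPM in treated libraries, against 110.2, 99.2 and 104 CPM in control libraries, without overlap (1.03 log2, SE 0.17, edgeR adjusted p = 0.00135). In KO libraries it had 147, 191 and 124 CPM treated and 94, 74 and 63.5 CPM control, and where the deletion lies in the gene is not given in the sources used here.

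Bacteria raised 1522 genes (10.6% of those tested) and lowered 1154 (8.07%) in WT cells. The counts of each gene list below stand beside these shares. The large changes were mostly upward: 268 genes rose and 68 fell at least 4-fold, and 48 rose and 5 fell at least 16-fold. The genes that rose held 35.1%, 36.7% and 35.4% of all scaled counts in the treated libraries, against 24.4%, 23.2% and 23.6% in the control libraries. The genes that fell were a small part of the RNA, with 2.30%, 1.94% and 2.30% in treated and 4.11%, 4.39% and 4.21% in control libraries. The 3 treated libraries all lay above the 3 control libraries for 2720 tested genes (19.0%) and all below for 2841 (19.9%), among them 1506 of the 1522 that rose and 1139 of the 1154 that fell. Genes that rose spanned a median of 28.7 kb on the genome, those that fell 14.3 kb and the uncalled 18.1 kb. The median of all genes was -0.04 log2. Scaled by library totals alone it was -0.35 log2, and 799 genes rose while 4225 fell. With upper-quartile factors it was -0.11, and 1241 rose while 1607 fell. A replicate block in the fit gave 2377 that rose and 2183 that fell, including 1514 and 1148 of those above. Leaving out 1 WT library moved the counts most for control library 2 (912 rose, 597 fell), control library 3 (926 rose, 736 fell) and treated library 2 (1121 rose, 702 fell). Without the libraries numbered 1, 1412 rose and 874 fell. In bulk RNA, more RNA of a gene per cell and more cells that hold it cannot be told apart.

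**Figure D1:**
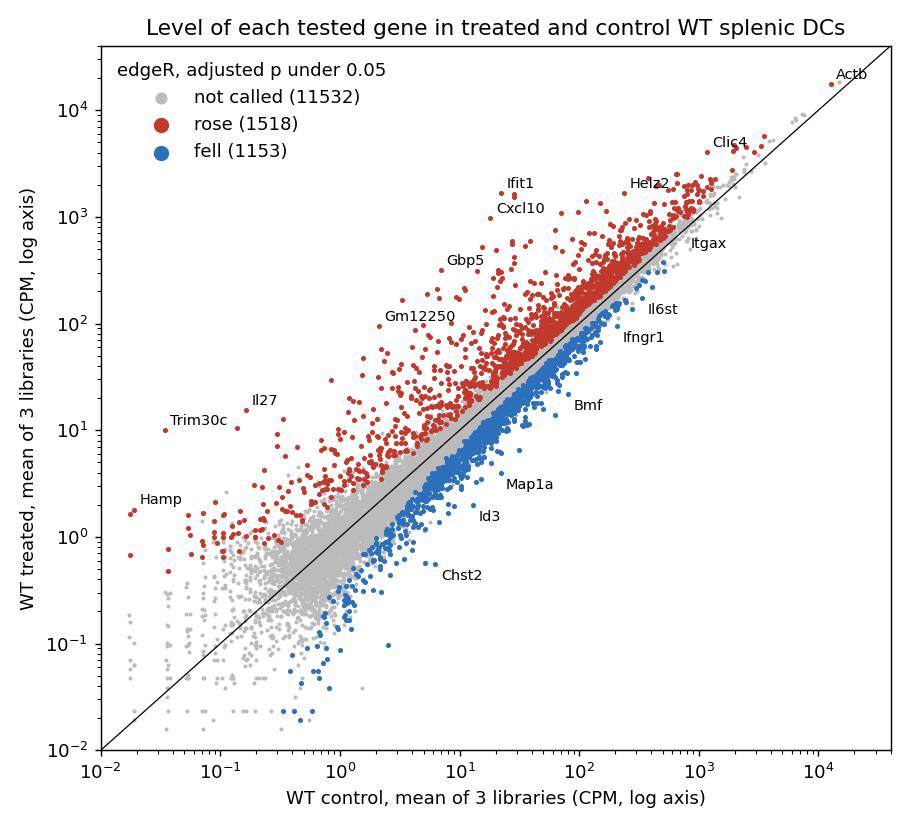
Mean level of each tested gene in treated WT (vertical, CPM) against control WT libraries (horizontal, CPM), both on log axes, with the line of equal levels; genes that rose are red and genes that fell are blue, and 90 genes with a mean of 0 in a group are not drawn. Some genes far above the line reach high treated levels (1663 ± 95.9 CPM in treated and 22.2 ± 12.9 CPM in control libraries for Ifit1). Others far above the line, such as Il27, stay at much lower levels. Genes far below the line lie at low to moderate levels (1.99 ± 0.325 CPM in treated and 13 ± 1.30 CPM in control libraries for Id3).

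Genes of the interferon response rose in large numbers. Ifnb1, the gene of interferon β, had 4.24, 7.44 and 2.75 CPM in treated libraries and no count in any control library. With 3 counts taken as the floor of the control group, it was at least 87.4-fold higher in treated cells. Its receptor genes did not rise with it. Ifnar1, which encodes 1 chain of the type I interferon receptor, was at 206 ± 12.3 CPM in treated and 269 ± 17.4 CPM in control libraries (-0.38 log2, SE 0.16, edgeR adjusted p = 0.113; with the replicate block, edgeR adjusted p = 0.00733, so that it then fell). Ifngr1, a chain of the interferon γ receptor, had 101, 100 and 85.2 CPM in treated libraries, against 223, 219 and 176 CPM in control libraries. All 3 treated values lay below the control values (-1.12 log2, SE 0.18, edgeR adjusted p = 0.00123). Ifnlr1, which binds interferon λ, fell as well (5.07 ± 2.14 CPM in treated and 15 ± 4.70 CPM in control libraries; -1.56 log2, SE 0.36, edgeR adjusted p = 0.0116).

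Transcription factors that carry the interferon signal rose. In the list of interferon regulatory factors, STATs, Janus kinases and BATF factors, 14 of 23 tested members rose and 1 fell, with a median of 0.72 log2. Irf7, which amplifies interferon production, had 235, 199.6 and 255 CPM in treated libraries, against 24.5, 46.6 and 15.5 CPM in control libraries (2.99 log2, SE 0.39, edgeR adjusted p = 0.000319). Stat2 had 422, 447 and 454 CPM in treated libraries, against 87.4, 119.7 and 85.3 CPM in control libraries (2.18 log2, SE 0.17, edgeR adjusted p = 7.57e-06). The 3 values of a group lay close together for Stat2 and were more spread for Irf7 in control cells, and neither gene had overlapping groups. Batf, an AP-1 factor of lymphoid and myeloid cells, rose too (2.11 log2, edgeR adjusted p = 0.00197). Irf3, the factor that is activated by phosphorylation directly below the sensors, fell slightly (-0.59 log2, SE 0.19, edgeR adjusted p = 0.0476), a call lost fitted on WT libraries alone and without treated library 2 or control library 1, 2 or 3 or the libraries numbered 1. Irf5, an NF-kB partner downstream of Toll-like receptors, stood at 814 ± 60.8 CPM in treated and 1000.2 ± 89.7 CPM in control libraries (-0.30 log2, SE 0.11, edgeR adjusted p = 0.0898; with the replicate block, edgeR adjusted p = 0.0355, so that it then fell). A fit blocked by replicate number gave 16 up and 2 down, library totals as the only scaling gave 10 up and 3 down, and dropping the libraries numbered 1 gave 14 up and none down. In this list 8 rose without control library 3, 9 rose without control library 2 and none fell without treated library 2 or control library 1, 2 or 3.

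Sensors of foreign nucleic acid rose almost as a body: 25 of 29 tested members rose and none fell, with a median of 2.77 log2. Ifih1, the gene of the RNA sensor MDA5, had 895, 1298 and 1061 CPM in treated libraries, against 77.3, 67.1 and 66.8 CPM in control libraries, a change of 15.4-fold without overlap (3.95 log2, SE 0.31, edgeR adjusted p = 1.01e-05). Oasl2 and Oas1b, of the oligoadenylate synthetase family that detects double-stranded RNA, rose 17.2-fold and 15-fold (edgeR adjusted p = 2.39e-05 and 1.29e-05). Ifi213 and Ifi203, of the PYHIN family that binds DNA, rose 21.1-fold and 12.1-fold (edgeR adjusted p = 2.2e-05 and 1.89e-05). Not all components passed the test. Tmem173, which encodes the DNA-sensing adaptor STING, had 46 ± 10.8 CPM in treated and 55.9 ± 7.68 CPM in control libraries (-0.28 log2, SE 0.18, edgeR adjusted p = 0.293).

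Among the antiviral effectors of the IFIT and MX families and their companions, 26 of 33 tested members rose and none fell, with a median of 2.33 log2. Mx2, a dynamin-like GTPase that blocks viruses, had 157, 173 and 166 CPM in treated libraries, against 2.82, 5.28 and 1.87 CPM in control libraries, 49.4-fold higher in treated cells (5.63 log2, SE 0.38, edgeR adjusted p = 3.56e-06). Ifit2 and Ifit3, which bind foreign RNA, rose together. Ifit2 had 1460.1, 1772 and 1415 CPM in treated cells and 25.3, 50.4 and 9.02 CPM in control cells. Ifit3 had 461, 642 and 479 CPM in treated cells and 15.3, 25.5 and 5.73 CPM in control cells. In these genes treated libraries were tight while control library values spread over 2-fold or more, and the groups stayed far apart. The family of interferon-induced GTPases that attack the vacuoles of intracellular bacteria (GBPs and IRGs) moved as strongly: 12 of 15 tested members rose and none fell, with a median of 3.71 log2. Gm12250, a further gene of this family outside the list, had 84.9, 104 and 93.9 CPM in treated libraries, against 2.82, 2.10 and 1.47 CPM in control libraries (44-fold; 5.46 log2, SE 0.33, edgeR adjusted p = 2.14e-06). Irgm2 and Igtp rose 19.9-fold and 19.6-fold (edgeR adjusted p = 2.14e-05 and 8.92e-06). Gbp8, of the same family, was at 12.4 ± 2.57 CPM in treated and 13.5 ± 0.606 CPM in control libraries (-0.12 log2, SE 0.21, edgeR adjusted p = 0.723). Many of these genes have near-identical neighbours, and how reads shared by copies were counted is not given in the sources used here.

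Genes of ISG15, a ubiquitin-like protein put onto others after interferon, and of PARP enzymes gave 12 risers of 16 with a median of 1.81 log2. Isg15 had 523, 421 and 512 CPM in treated libraries, against 20.3, 26.3 and 14 CPM in control libraries (4.59 log2, SE 0.32, edgeR adjusted p = 4.05e-06). Its conjugating enzymes and the protease Usp18 that removes it rose with it, as Herc6 (8.86-fold), Ube2l6 (5.27-fold) and Usp18 (15-fold) had edgeR adjusted p of 1.68e-05, 0.00032 and 8.42e-06. Parp14, a mono-ADP-ribosyl transferase, had 991, 1092 and 1256 CPM in treated libraries, against 96.8, 124 and 74.3 CPM in control libraries (3.50 log2, SE 0.27, edgeR adjusted p = 8.9e-06). Parp1, the DNA repair member of the family, was the 1 member that fell (41.9 ± 3.74 CPM in treated and 59.4 ± 3.36 CPM in control libraries; -0.51 log2, SE 0.10, edgeR adjusted p = 0.00349). In the Schlafen and TRIM families, 23 of 26 tested members rose and 1 fell, with a median of 1.71 log2 (the 1 faller was not called without treated library 1 or 3, control library 1 or 3 or the libraries numbered 1). Slfn5, Slfn8 and Slfn9, of a family with roles in cell growth and virus restriction, rose 15.3-fold, 14.4-fold and 14.2-fold (edgeR adjusted p = 0.000232, 2.39e-05 and 1.91e-05). Trim65, a ligase that modifies MDA5, was the member that fell (-1.11 log2, SE 0.31, edgeR adjusted p = 0.0269), a call lost fitted on WT libraries alone and without treated library 1 or 3 or control library 1 or 3 or the libraries numbered 1. Helz2, a helicase and nuclear receptor coactivator, had 1699, 1578 and 1691 CPM in treated libraries, against 246, 271 and 198 CPM in control libraries (2.80 log2, SE 0.16, edgeR adjusted p = 9.67e-07), 1 of the genes with the largest gain in absolute counts.

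**Figure D2:**
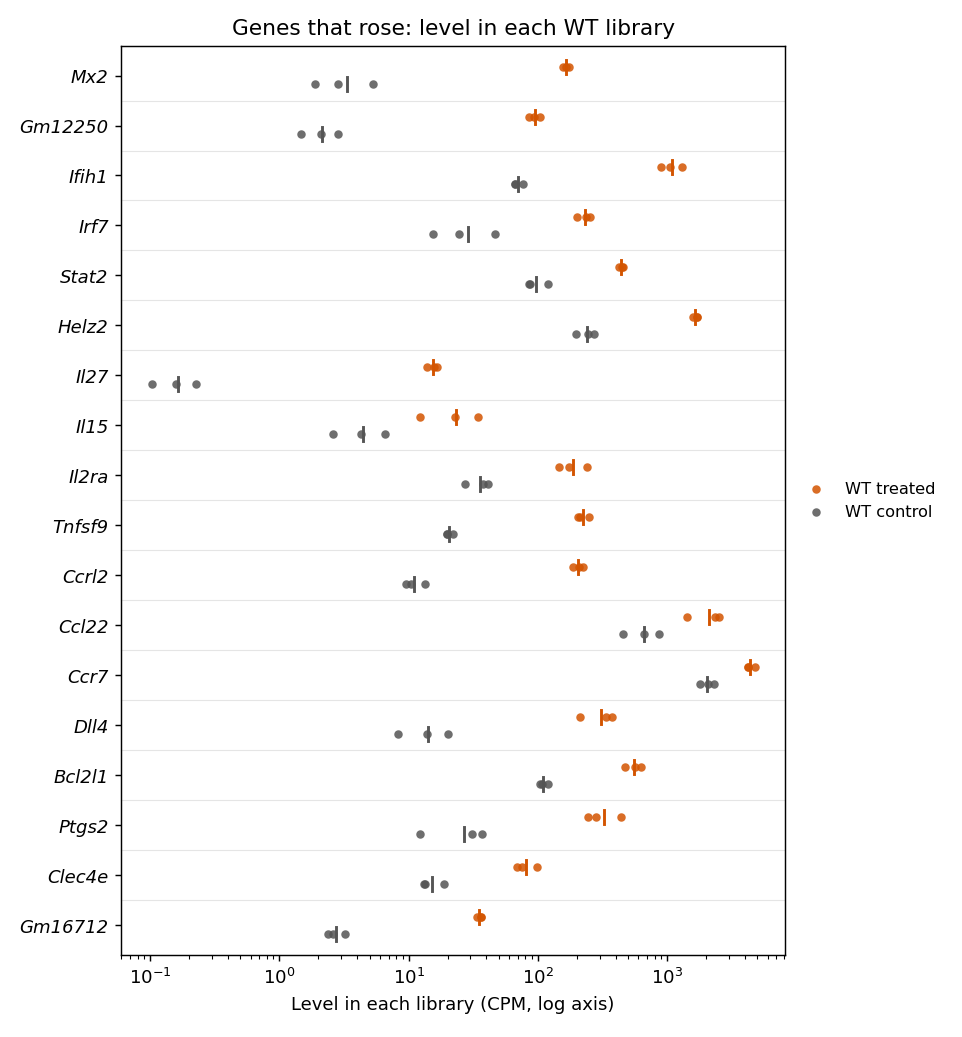
Level in each WT library (CPM, log axis) of 18 genes that rose, each point 1 library and each bar the mean of 3, treated above control in every row. In all 18 rows the 3 treated points lie to the right of the 3 control points.

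Many of these genes sit side by side. Runs of at least 4 neighbouring tested protein-coding genes that all rose numbered 24 and held 112 genes; runs that all fell numbered 9 and held 40. The runs below were named after their values were seen, with coordinates (mm10) from the deposited table. On chromosome 1, 7 genes between 173723427 and 174044411, led by Ifi205 with 3.88 log2, rose by a median of 2.76 log2. Another run of 7 there, between 84992690 and 85851576, holds Sp100, Sp110 and Sp140 and ends with the unrelated Cab39. Its median was 1.71 log2 (0.37 to 1.98). On chromosome 14, Phf11a, Phf11b, Phf11c and Phf11d, with the histone methyltransferase gene Setdb2 (1.45 log2) next to them, lay in a run of 6 between 59244441 and 59440884 (median 2.37). On chromosome 5 the Oas genes lay in a run of 6 between 120730333 and 121191397 (2.99), and on chromosome 3 the run of Gbp5, Gbp7, Gbp3 and Gbp2 between 142493978 and 142638008 had a median of 3.97. On chromosome 11 the 5 Slfn genes between 82951349 and 83122670 had 3.83, and on chromosome 19 the Ifit run between 34550694 and 34613401 had 5.11. Runs outside gene families occurred as well, such as Pfkfb3 (a call lost without control library 2), Rbm17, Il2ra and Il15ra on chromosome 2 between 11471433 and 11734317 (median 1.37). Among those that fell, the longest held 7 genes on chromosome 2 between 25192966 and 25272438 (median -0.69).

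Promoters of the strongest risers often held the sequence to which interferon-activated factors bind. RefSeq promoter windows (GRCm38.p6) of 300 bases, from 250 before to 50 after each start, were at hand for 10010 of 14291 tested symbols. A pair of motifs were searched on both strands. A gene was counted as holding a motif if any of its windows did, and 2002 tested symbols had more than 1 window. The interferon-stimulated response element (ISRE) was taken as GAAANNGAAA and the NF-kB element as GGGNNNTTCC; no overlap between the 2 patterns was filtered. Of the 100 genes that rose most with at least 5 CPM in the higher group, 81 had a promoter, and 36 of these (44.4%) held an ISRE, against 4.06% of all tested genes with a promoter and 3.44% of all 32851 promoters. The NF-kB element was in 11 (13.6%), against 7.49% and 5.56%. Both were in 4. Of the 100 genes that fell most 79 had a promoter, under the minimum of 80% set for this check, which is therefore void for them. The tested genes as a whole also lay under it (70.0%), so the share set beside the risers is that of the genes with a window and not of every gene tested. A match is a description of letters and not of binding. The 8 promoters below, the 250 bases before the start written 5′ to 3′ along the gene, are shown because their genes carry the interferon and NF-kB parts of the response. Where a gene had more than 1 window, the 1 with the most matches is shown, so its matches follow in part from that choice. Capitals mark the matches. Isg15 held 3 overlapping ISRE matches, Ifit1 and Ifit3 held 2 each and Rsad2 held 1. Gbp5 and Cxcl10 held both motifs. Nfkbia and Tnfaip3, inhibitors of NF-kB, held the NF-kB element alone.
Isg15, chr4:156200819-156201068, minus strand: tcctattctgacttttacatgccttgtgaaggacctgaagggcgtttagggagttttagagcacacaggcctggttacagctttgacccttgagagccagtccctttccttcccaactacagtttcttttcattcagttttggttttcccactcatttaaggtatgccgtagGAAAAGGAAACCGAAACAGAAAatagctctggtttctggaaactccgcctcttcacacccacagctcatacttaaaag
Ifit1, chr19:34640639-34640888, plus strand: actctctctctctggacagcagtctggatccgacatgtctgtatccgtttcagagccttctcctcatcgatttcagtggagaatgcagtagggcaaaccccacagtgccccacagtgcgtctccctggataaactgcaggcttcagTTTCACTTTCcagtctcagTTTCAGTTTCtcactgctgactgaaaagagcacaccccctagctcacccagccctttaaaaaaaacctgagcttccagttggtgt
Ifit3, chr19:34583279-34583528, plus strand: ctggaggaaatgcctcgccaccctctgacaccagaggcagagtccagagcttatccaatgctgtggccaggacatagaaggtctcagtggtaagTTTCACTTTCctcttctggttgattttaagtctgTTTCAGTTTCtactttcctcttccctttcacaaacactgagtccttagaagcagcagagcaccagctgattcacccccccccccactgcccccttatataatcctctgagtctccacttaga
Rsad2, chr12:26456453-26456702, minus strand: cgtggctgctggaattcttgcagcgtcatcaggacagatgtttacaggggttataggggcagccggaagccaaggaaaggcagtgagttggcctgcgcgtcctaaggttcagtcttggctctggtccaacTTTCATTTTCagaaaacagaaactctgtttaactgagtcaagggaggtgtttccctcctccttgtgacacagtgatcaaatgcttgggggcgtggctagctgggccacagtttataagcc
Gbp5, chr3:142496684-142496933, plus strand: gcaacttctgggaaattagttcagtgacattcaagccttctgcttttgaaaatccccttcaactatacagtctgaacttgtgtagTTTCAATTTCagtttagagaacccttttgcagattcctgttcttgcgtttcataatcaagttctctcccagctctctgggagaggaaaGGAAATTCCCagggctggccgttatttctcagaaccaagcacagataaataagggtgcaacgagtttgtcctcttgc
Cxcl10, chr5:92348890-92349139, minus strand: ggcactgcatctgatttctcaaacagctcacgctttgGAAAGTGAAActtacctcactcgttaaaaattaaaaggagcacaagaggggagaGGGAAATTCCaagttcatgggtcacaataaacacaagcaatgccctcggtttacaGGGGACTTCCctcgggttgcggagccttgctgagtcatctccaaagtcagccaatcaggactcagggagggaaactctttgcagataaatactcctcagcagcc
Nfkbia, chr12:55492648-55492897, minus strand: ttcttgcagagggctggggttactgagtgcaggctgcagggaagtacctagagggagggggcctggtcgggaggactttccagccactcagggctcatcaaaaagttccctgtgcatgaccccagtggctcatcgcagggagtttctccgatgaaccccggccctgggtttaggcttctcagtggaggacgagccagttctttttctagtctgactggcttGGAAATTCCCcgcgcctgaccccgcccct
Tnfaip3, chr10:19015411-19015660, minus strand: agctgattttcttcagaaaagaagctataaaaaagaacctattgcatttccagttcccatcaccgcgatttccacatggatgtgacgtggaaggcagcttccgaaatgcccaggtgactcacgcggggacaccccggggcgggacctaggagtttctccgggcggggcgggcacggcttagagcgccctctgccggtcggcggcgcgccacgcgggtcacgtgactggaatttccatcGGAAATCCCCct

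Set beside these sequences, the values were as follows. Ifit1 had 1553, 1707 and 1729 CPM in treated cells and 23.3, 34.6 and 8.79 CPM in control cells. Rsad2, an enzyme that makes a chain-terminating nucleotide, had 1455, 1843 and 1629 CPM in treated cells and 25.7, 43.4 and 15.7 CPM in control cells. Gbp5, which coats bacteria, had 294, 352 and 298 CPM in treated cells and 7.72, 8.20 and 5.16 CPM in control cells. Cxcl10, which draws activated T cells, had 872, 1155 and 885 CPM in treated cells and 14.4, 29.7 and 10.2 CPM in control cells. For these 4 genes every treated value lay far above every control value of the same gene. Nfkbia had 1852, 1721 and 1822 CPM in treated cells and 571, 499.8 and 584 CPM in control cells. Tnfaip3, a deubiquitinase, had 2141, 2657 and 2116 CPM in treated cells and 362, 370.1 and 387 CPM in control cells. Both NF-kB inhibitors rose, 3.26-fold and 6.18-fold (edgeR adjusted p = 2.14e-06 and 4.12e-07). The promoters of Mx1, Mx2 and Ccl4 were not analysed here.

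Cytokine genes rose while some of their receptor chains fell. In the list of the interleukin 12, 6 and 10 families and their receptors, 9 of 17 tested members rose and 2 fell, with a median of 1.40 log2. Il27, the α subunit of interleukin 27, had 14, 15.6 and 16.6 CPM in treated libraries, against 0.160, 0.103 and 0.227 CPM in control libraries. Ebi3, its partner chain, named after its values were seen, had 111, 149 and 145 CPM in treated libraries, against 19.4, 12.9 and 16.2 CPM in control libraries. Both subunits thus rose without overlap, 91.6-fold (edgeR adjusted p = 6.72e-07) and 8.36-fold (edgeR adjusted p = 8.9e-06). Il12b, the subunit shared by interleukins 12 and 23, had 807, 2525 and 910.3 CPM in treated libraries, against 102, 141 and 101 CPM in control libraries, with treated library 2 several times higher than the other two (3.62 log2, SE 0.48, edgeR adjusted p = 0.000357). Lif, a cytokine of the interleukin 6 family, rose 8.78-fold (13.6 ± 1.96 CPM in treated and 1.54 ± 0.699 CPM in control libraries; edgeR adjusted p = 0.000102). The 2 members that fell were both receptor chains of this family. Il6ra, which binds interleukin 6, had 33.4, 27.7 and 28.2 CPM in treated libraries, against 69, 65.1 and 62.1 CPM in control libraries (-1.13 log2, SE 0.13, edgeR adjusted p = 9.49e-05). Il6st, the signalling chain gp130 shared by interleukins 6 and 27 and Lif, had 154, 176 and 195 CPM in treated libraries, against 324, 339 and 338 CPM in control libraries (-0.93 log2, SE 0.17, edgeR adjusted p = 0.00269). In both genes all treated values lay below all control values.

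In the interleukin 1 family, 4 of 15 tested members rose (26.7%, against 10.6% of all tested genes) and 1 fell (6.67%, against 8.07%). Il1a rose 9.35-fold (12.4 ± 7.71 CPM in treated and 1.30 ± 0.948 CPM in control libraries; edgeR adjusted p = 0.00367), and Il1rn, the natural antagonist of the interleukin 1 receptor, had 438, 407 and 495 CPM in treated libraries, against 157, 90.0 and 159 CPM in control libraries (1.72 log2, SE 0.26, edgeR adjusted p = 0.000826). Sigirr, an inhibitory receptor of the family, fell (3.91 ± 0.624 CPM in treated and 10.6 ± 1.67 CPM in control libraries; -1.44 log2, SE 0.29, edgeR adjusted p = 0.00466). Il18bp, which neutralises interleukin 18, was the fourth riser (0.83 log2, SE 0.25, edgeR adjusted p = 0.0361), a call lost scaled by library totals alone, with limma-voom and without treated library 2 or 3 or control library 1, 2 or 3. Blocking on the replicate number gave 7 up and 1 down. Interleukin 15, which DCs carry on their surface bound to its own receptor, rose with that receptor. Il15 had 12.1, 34.2 and 23 CPM in treated libraries, against 2.61, 6.56 and 4.25 CPM in control libraries (2.37 log2, SE 0.44, edgeR adjusted p = 0.00347). Il15ra had 34.4, 39.5 and 46.5 CPM in treated libraries, against 6.49, 11.7 and 12.8 CPM in control libraries (1.96 log2, SE 0.26, edgeR adjusted p = 0.00028). Il2ra, the interleukin 2 receptor chain CD25, had 146, 241 and 175 CPM in treated libraries, against 41.1, 27.4 and 37.7 CPM in control libraries (2.40 log2, SE 0.33, edgeR adjusted p = 0.00049). None of these 3 genes had overlapping groups. Csf2rb, the shared receptor chain for GM-CSF, was at 1542 ± 222 CPM in treated and 2174 ± 261 CPM in control libraries (-0.50 log2, SE 0.22, edgeR adjusted p = 0.136; with the replicate block, edgeR adjusted p = 0.000992, so that it then fell).

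Of ligands of the tumour necrosis factor family, 7 of 13 tested members rose and 1 fell, with a median of 0.99 log2; the faller was not called without treated library 1 or 2, control library 1 or 3 or the libraries numbered 1. Tnfsf9, the ligand of 4-1BB, had 212, 247 and 206 CPM in treated libraries, against 19.7, 19.7 and 22.1 CPM in control libraries, 10.8-fold higher (3.43 log2, SE 0.17, edgeR adjusted p = 4.12e-07). Tnfrsf9, which encodes 4-1BB itself, had 31, 27 and 32.2 CPM in treated libraries, against 53.6, 47.8 and 60.8 CPM in control libraries and fell (-0.85 log2, SE 0.14, edgeR adjusted p = 0.00152). Ligand and receptor thus moved in opposite directions, each without overlap. Tnfsf10, the death ligand TRAIL, rose 23-fold (7.06 ± 1.35 CPM in treated and 0.295 ± 0.288 CPM in control libraries; edgeR adjusted p = 0.000912), and Lta, lymphotoxin α, 6.77-fold (21.6 ± 1.93 CPM in treated and 3.18 ± 0.202 CPM in control libraries; edgeR adjusted p = 0.000238). Ltb, lymphotoxin β, was the member that fell (-0.83 log2, SE 0.27, edgeR adjusted p = 0.0477), with overlapping groups, and was a call lost without a filter on low counts, fitted on WT libraries alone and without treated library 1 or 2 or control library 1 or 3 or the libraries numbered 1. Of the receptors, 5 of 21 tested members rose and 1 fell, led by Cd40, through which T cells license DCs (614, 758 and 758 CPM in treated libraries, against 127, 144 and 129 CPM in control libraries; 2.41 log2, SE 0.16, edgeR adjusted p = 2.56e-06), and Tnfrsf1a, the main receptor of TNF (1.10 log2, edgeR adjusted p = 0.00874). A block for replicate number gave 8 up and 2 down, and scaling by totals alone gave 4 up and 4 down.

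Chemokines rose as well: 11 of 21 tested members rose and 1 fell, with a median of 1.31 log2; the faller was not called without treated library 1 or 3 or control library 2 or 3. Ccl3 and Cxcl2, which draw monocytes and neutrophils, rose 11.7-fold and 9.94-fold (267 ± 67.1 CPM in treated and 22.8 ± 14.5 CPM in control libraries for Ccl3; edgeR adjusted p = 0.000128 and 0.000156). Ccl22, a product of mature DCs that draws CCR4-bearing T cells, had 1428, 2504 and 2349.9 CPM in treated libraries, against 458, 871 and 659 CPM in control libraries (1.66 log2, SE 0.31, edgeR adjusted p = 0.00343). The chemokine that fell was Ppbp, a platelet product, with 5 counts over the treated and 141 over the control libraries (-4.61 log2, SE 1.25, edgeR adjusted p = 0.0245), a call lost with limma-voom, without a filter on low counts and without treated library 1 or 3 or control library 2 or 3. Among chemokine and chemoattractant receptors, 7 of 28 tested members rose and 1 fell. Ccrl2, a non-signalling receptor that holds chemerin on the cell surface, had 221, 208 and 188 CPM in treated libraries, against 13.4, 10.4 and 9.59 CPM in control libraries, 18.5-fold higher (4.21 log2, SE 0.28, edgeR adjusted p = 3.56e-06). Ccr7 had 4759, 4191 and 4216 CPM in treated libraries, against 2312, 1788 and 2054 CPM in control libraries. Gpr183, a receptor for oxysterols that positions DCs in the spleen, had 1191, 986 and 1038 CPM in treated libraries, against 423, 261 and 345 CPM in control libraries. Ccr7 rose 2.14-fold (edgeR adjusted p = 0.00119), and Gpr183 rose 3.13-fold (edgeR adjusted p = 4.04e-05). Cxcr5, the receptor that leads cells to B cell follicles, rose 4.88-fold (39.7 ± 18.1 CPM in treated and 8.10 ± 5.39 CPM in control libraries; edgeR adjusted p = 0.00803), a call lost without a filter on low counts. Cx3cr1, the fractalkine receptor, fell (1.68 ± 0.477 CPM in treated and 8.00 ± 1.45 CPM in control libraries; -2.25 log2, SE 0.44, edgeR adjusted p = 0.00436), a call lost with limma-voom. The replicate block gave 12 up and 3 down, scaling by library totals gave 7 up and 4 down, and omission of the libraries numbered 1 gave 7 up and 2 down. Of the list, 2 fell without treated library 1.

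In the list of migration and cytoskeleton genes, 13 of 36 tested members rose and none fell, with a median of 0.47 log2. Marcksl1, which links actin to the membrane, had 2167, 2473 and 2927 CPM in treated libraries, against 589.7, 626 and 700 CPM in control libraries (1.98 log2, SE 0.18, edgeR adjusted p = 1.66e-05). Rgs1, which dampens chemokine receptor signals, had 2298, 3265 and 1947 CPM in treated libraries, against 739.9, 579 and 640.4 CPM in control libraries (1.94 log2, SE 0.21, edgeR adjusted p = 7.29e-05). Fscn1, the actin bundler of mature DCs, had 2379.5, 1448 and 2587 CPM in treated libraries, against 1008, 677 and 1077 CPM in control libraries (1.22 log2, SE 0.23, edgeR adjusted p = 0.00394). Cd44, a receptor for hyaluronan, rose 2.85-fold (523 ± 167 CPM in treated and 184 ± 8.67 CPM in control libraries; edgeR adjusted p = 0.00681). Treated and control values of these 4 genes did not overlap. A fit blocked by replicate number gave 22 up and 1 down, and library totals as the only scaling gave 8 up and 2 down. In this list 8 rose without control library 2 or 3.

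NF-kB genes rose together with the genes that switch NF-kB off. Of NF-kB subunits, inhibitors and kinases, 12 of 19 tested members rose and 1 fell, with a median of 0.61 log2. Nfkbiz, an atypical inhibitor that acts as a coactivator of secondary genes, had 806, 783 and 691 CPM in treated libraries, against 57.5, 59 and 70.0 CPM in control libraries (3.61 log2, SE 0.17, edgeR adjusted p = 4.12e-07). Nfkb1, the gene of p105 and p50, had 1757, 1701 and 1472 CPM in treated libraries, against 951, 745 and 703 CPM in control libraries (1.04 log2, SE 0.19, edgeR adjusted p = 0.00287). Map3k8, a kinase below Toll-like receptors, rose 2.75-fold (edgeR adjusted p = 1.01e-05). Map3k14, the kinase of the alternative NF-kB pathway, had 969 ± 216 CPM in treated and 1531 ± 127 CPM in control libraries (-0.66 log2, SE 0.28, edgeR adjusted p = 0.116; with the replicate block, edgeR adjusted p = 0.00178, so that it then fell). Blocking on the replicate number gave 14 up and 3 down, and library totals alone gave 8 up and 3 down. Among its members, 7 rose without control library 2 and none fell without treated library 1 or 3 or control library 1, 2 or 3. Of the brakes on NF-kB and cytokine signals, 15 of 26 tested members rose and none fell, with a median of 0.64 log2. Socs3, which blocks signalling from gp130, had 211, 143 and 192 CPM in treated libraries, against 18.7, 20.4 and 18 CPM in control libraries (3.26 log2, SE 0.29, edgeR adjusted p = 1.89e-05). Peli1, a ubiquitin ligase, had 547, 776 and 649 CPM in treated libraries, against 148, 163 and 153 CPM in control libraries (2.09 log2, SE 0.14, edgeR adjusted p = 3.56e-06). Cish, Socs1 and the RNase gene Zc3h12a rose 4.38-fold, 3.15-fold and 2.68-fold (edgeR adjusted p = 0.000765, 0.00239 and 0.000173). Cyld, another deubiquitinase, and Zfp36l1, which destabilises mRNA, had log2 differences of -0.09 and -0.05 (edgeR adjusted p = 0.739 and 0.908).

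Phosphatases and Sprouty proteins that limit MAP kinases gave 8 risers and 1 faller of 16, and none fell without treated library 1 or 3, control library 1 or 2 or the libraries numbered 1. Dusp14 rose 8.42-fold (15.9 ± 4.19 CPM in treated and 1.88 ± 0.737 CPM in control libraries; edgeR adjusted p = 0.000274), and Dusp2, a nuclear phosphatase of activated leukocytes, had 1032 ± 186 CPM in treated and 362 ± 45.3 CPM in control libraries (1.51 log2, SE 0.16, edgeR adjusted p = 5.6e-05). Spry1 was the one that fell (-1.47 log2, SE 0.44, edgeR adjusted p = 0.036), a call lost without a filter on low counts and without treated library 1 or 3 or control library 1 or 2 or the libraries numbered 1. Immediate early genes gave 7 risers of 30 tested members (23.3%, against 10.6% of all tested genes) and 2 fallers (6.67%, against 8.07%). The calls include Id1 and Id2 (up) and Id3 (down), which also stand in the list of TGFβ, SMAD and Notch genes. Atf3 and Fos rose too, calls lost under 4 and 9 alternatives, and Junb was not called. Klf6 had 1529, 1959.7 and 1831 CPM in treated libraries, against 734, 828 and 832 CPM in control libraries and rose (1.15 log2, SE 0.14, edgeR adjusted p = 0.000149). Mafk rose 2.84-fold (edgeR adjusted p = 0.000348). Egr2 had 20.2, 19.5 and 29.1 CPM in treated libraries, against 38.4, 44.8 and 60.7 CPM in control libraries and fell (-1.06 log2, SE 0.22, edgeR adjusted p = 0.00632). A block for replicate number gave 10 up and 8 down, scaling by totals alone gave 4 up and 8 down, and dropping the libraries numbered 1 gave 7 up and 5 down. For these genes, 3 rose without control library 2.

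Toll-like receptor genes split. In the list, 8 of 20 tested members rose and 2 fell. Tlr7 and Cd180 rose 3.04-fold and 1.96-fold (edgeR adjusted p = 0.00108 and 0.000711), Cd180 being an LPS-related receptor of myeloid and B cells, with 325 ± 56.9 CPM in treated and 166 ± 10.2 CPM in control libraries. Tlr6, which pairs with Tlr2 for bacterial lipopeptides, rose 1.77-fold (edgeR adjusted p = 0.000784), and Cd14, the LPS co-receptor, 3.22-fold (edgeR adjusted p = 0.00321). Tlr4, the LPS receptor, had 1.34, 1.39 and 0.853 CPM in treated libraries, against 5.00, 7.38 and 2.95 CPM in control libraries and fell (-2.11 log2, SE 0.57, edgeR adjusted p = 0.0231). Tlr11, a mouse receptor for profilin and flagellin, fell too (3.40 ± 0.923 CPM in treated and 8.82 ± 2.15 CPM in control libraries; -1.37 log2, SE 0.33, edgeR adjusted p = 0.0126). The fall of Tlr4 was a call lost with limma-voom, without a filter on low counts and without treated library 2 or 3 or control library 2, and that of Tlr11 a call lost without control library 2. Below the receptors, the adaptor Myd88 (1.57 log2), Ripk2, the kinase of the NOD receptors (1.23), Traf6 (0.87) and Tab2 (0.77) rose, with edgeR adjusted p of 4.63e-05, 0.00252, 0.00125 and 0.00235. For the receptor list, the replicate block gave 11 up and 4 down, and scaling by library totals gave 6 up and 5 down. Of the receptor list, 5 rose without control library 2, none fell without control library 2 and 1 fell without treated library 2 or 3.

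**Figure D3:**
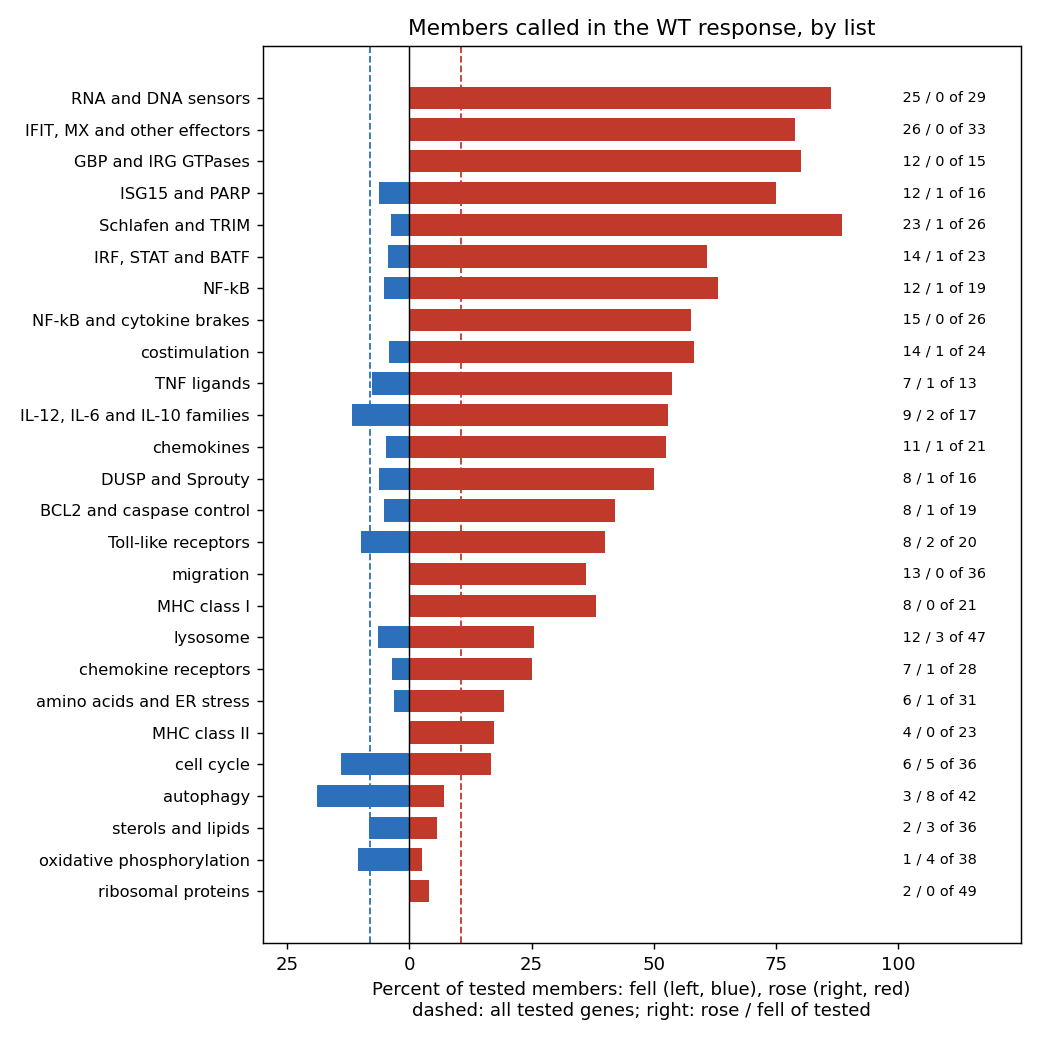
Percent of tested members of 26 gene lists that rose (red, right) or fell (blue, left) in treated against control WT cells, with numbers at the right. Dashed lines mark the shares of all tested genes, 10.6% and 8.07%; interferon lists lie far to the right, while autophagy (3 rose, 8 fell of 42) lies to the left.

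A Notch ligand stood out among the strong risers. Dll4, which DCs use to instruct T helper cells through Notch, had 339, 210.4 and 376 CPM in treated libraries, against 20.2, 8.25 and 13.8 CPM in control libraries, 21.9-fold higher in treated cells (4.45 log2, SE 0.33, edgeR adjusted p = 6.69e-06; chromosome 2, 119325784 to 119335962). Dll1, a second Delta ligand, had 2.90, 3.95 and 2.42 CPM in treated libraries, against 0.160, 0.359 and 0.0567 CPM in control libraries (3.94 log2, SE 0.69, edgeR adjusted p = 0.00211). All treated values of both genes lay above all control values, at very different levels: per kilobase of gene length, Dll4 reached 80.1 and Dll1 0.732 RPKM in treated cells, against 3.65 and 0.0455 RPKM in control cells. The receptor gene Notch1 rose 2.62-fold (17.6 ± 2.10 CPM in treated and 6.73 ± 0.205 CPM in control libraries; edgeR adjusted p = 0.00137), and Lfng, whose product modifies Notch receptors, had 160.1, 112 and 135 CPM in treated libraries, against 306, 268 and 262 CPM in control libraries and fell (-1.04 log2, SE 0.15, edgeR adjusted p = 0.000534). The Id genes, inhibitors of E proteins, went apart. Id1 had 18.6, 13.1 and 18.1 CPM in treated libraries, against 4.04, 2.20 and 3.46 CPM in control libraries and rose (2.36 log2, SE 0.26, edgeR adjusted p = 6.88e-05). Id3 had 2.33, 1.69 and 1.94 CPM in treated libraries, against 11.8, 12.8 and 14.4 CPM in control libraries and fell (-2.71 log2, SE 0.40, edgeR adjusted p = 0.000816). Over a list of TGFβ, SMAD and Notch genes, in which Dll4 and Lfng do not stand, 8 of 32 tested members rose and 2 fell. A fit blocked by replicate number gave 11 up and 4 down, library totals as the only scaling gave 5 up and 7 down, and dropping the libraries numbered 1 gave 7 up and 1 down. In this list 1 fell without treated library 2 or 3 or control library 1 or 3.

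Costimulatory and coinhibitory genes rose in both classes. Of the list, 14 of 24 tested members rose and 1 fell, with a median of 0.92 log2; none fell without treated library 1 or 3, control library 1 or 2 or the libraries numbered 1. Cd80 and Cd86, the ligands of CD28, named after their values were seen, had 849.7, 747 and 780.4 CPM in treated cells and 319, 266 and 270.2 CPM in control cells for Cd80 and 1335, 1490.3 and 1129.7 CPM in treated cells and 616, 449 and 454 CPM in control cells for Cd86 (1.47 and 1.38 log2, edgeR adjusted p = 0.000483 and 0.000259). Cd274, which encodes PD-L1, had 1167, 1843 and 1043 CPM in treated libraries, against 408, 447 and 404 CPM in control libraries (1.69 log2, SE 0.19, edgeR adjusted p = 9.08e-05). Pvr and Nectin2, ligands shared by the activating receptor CD226 and the inhibitory receptor TIGIT, rose 4.10-fold and 3.60-fold (edgeR adjusted p = 3.19e-06 and 6.45e-05), and Lgals9, galectin 9, rose 7.62-fold (23.3 ± 6.08 CPM in treated and 3.05 ± 1.30 CPM in control libraries; edgeR adjusted p = 0.00121). Slamf8 was the member that fell (-0.82 log2, SE 0.22, edgeR adjusted p = 0.0223), a call lost without treated library 1 or 3 or control library 1 or 2 or the libraries numbered 1.

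Genes that control cell death rose on both sides of the balance. In the list of BCL2 proteins and caspase inhibitors, 8 of 19 tested members rose and 1 fell, with a median of 0.31 log2. The survival gene Bcl2l1, which encodes BCL-XL, had 469.5, 565 and 624 CPM in treated libraries, against 104, 107 and 119 CPM in control libraries (2.33 log2, SE 0.19, edgeR adjusted p = 1.01e-05). Cflar, which blocks caspase 8, had 1721, 1868 and 1878 CPM in treated libraries, against 610, 601 and 616 CPM in control libraries (1.58 log2, SE 0.10, edgeR adjusted p = 1.94e-06). The death gene Bcl2l11, which encodes BIM, also rose, with 901, 1227 and 1151 CPM in treated libraries, against 328, 439 and 405 CPM in control libraries (1.49 log2, SE 0.15, edgeR adjusted p = 4.36e-05). Bmf, another BH3-only death gene, had 17.8, 20.5 and 27.1 CPM in treated libraries, against 70.5, 74.3 and 95.7 CPM in control libraries and fell 3.67-fold (-1.88 log2, SE 0.24, edgeR adjusted p = 0.000261). None of the 4 genes had overlapping groups. Blocking on the replicate number gave 9 up and 4 down, library totals alone gave 7 up and 5 down, and omission of the libraries numbered 1 gave 9 up and 2 down. Among its members, 2 fell without treated library 2 or 3 or control library 1.

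Antigen presentation genes that were called all rose, by modest amounts. Of MHC class I genes and their loading machinery, 8 of 21 tested members rose and none fell, with a median of 0.37 log2. Tapbp, which loads peptides, had 468, 543 and 557 CPM in treated libraries, against 228, 293 and 234 CPM in control libraries (1.06 log2, SE 0.18, edgeR adjusted p = 0.00173). The non-classical genes H2-T24 and H2-T22 rose 3.07-fold and 2.65-fold (edgeR adjusted p = 0.000162 and 0.000216). A block for replicate number gave 13 up and 1 down, scaling by totals alone gave 5 up and none down, and dropping the libraries numbered 1 gave 8 up and 1 down. For these genes, 5 rose without control library 3 and 1 fell without treated library 1. Of MHC class II genes, 4 of 23 tested members rose and none fell, with a median of 0.38 log2 (0.05 scaled by library totals alone). The risers were Ciita, the master regulator, with 644, 602 and 672 CPM in treated libraries, against 387, 323 and 317 CPM in control libraries (0.90 log2, SE 0.23, edgeR adjusted p = 0.0203; a call lost scaled by library totals alone, without a filter on low counts and without treated library 3 or control library 2 or 3), Cd83, which stabilises class II at the surface (0.89 log2, SE 0.21, edgeR adjusted p = 0.0112; a call lost scaled by library totals alone and without control library 2 or 3), Rfx5 (0.43) and the protease gene Ctss (0.43; edgeR adjusted p = 0.0103 and 0.0343); Rfx5 was a call lost scaled by library totals alone and without control library 2, and Ctss a call lost with upper-quartile factors, scaled by library totals alone and without treated library 1 or 2 or control library 2 or 3. Cd74, the invariant chain, had 18258 ± 1829.5 CPM in treated and 14733 ± 469 CPM in control libraries (0.31 log2, SE 0.14, edgeR adjusted p = 0.15; with the replicate block, edgeR adjusted p = 0.0371, so that it then rose, and below 0 scaled by library totals alone). The replicate block gave 14 up and 3 down, scaling by library totals gave none up and 4 down, and omission of the libraries numbered 1 gave 10 up and 1 down. None rose without control library 2, 1 rose without control library 3 and 1 fell without treated library 1 or control library 2.

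Genes that act on the bacterium itself included single large changes. In the list of phagocyte killing and redox genes, 6 of 27 tested members rose and 1 fell. Hamp, hepcidin, which blocks the iron exporter ferroportin, had 93 counts over the treated and 1 over the control libraries, a ratio of 99.1 (95% counting interval 17.4 to 3957). Slc40a1, ferroportin itself and listed with the macrophage genes, had 2.75, 3.66 and 3.32 CPM in treated libraries, against 11.2, 16.8 and 13.5 CPM in control libraries and fell (-2.08 log2, SE 0.53, edgeR adjusted p = 0.0184), a call lost with limma-voom, without a filter on low counts and without treated library 2 or 3 or control library 2. Acod1, which makes itaconate, had 42.9, 70.8 and 66.3 CPM in treated libraries, against 2.98, 6.61 and 2.44 CPM in control libraries (3.89 log2, SE 0.70, edgeR adjusted p = 0.00311). Cybb, the catalytic subunit of the phagocyte oxidase, had 339, 428 and 362 CPM in treated libraries, against 102, 84.8 and 88 CPM in control libraries (2.04 log2, SE 0.23, edgeR adjusted p = 9.8e-05). Gch1, which makes the cofactor of nitric oxide synthase, rose 2.17-fold (edgeR adjusted p = 0.000106). A fit blocked by replicate number gave 11 up and 6 down, library totals as the only scaling gave 6 up and 4 down, and dropping the libraries numbered 1 gave 7 up and 2 down. None fell without treated library 1 or 3 or control library 2. Ptgs2, cyclooxygenase 2, had 443, 243 and 282 CPM in treated libraries, against 37.2, 12.3 and 31.1 CPM in control libraries, 12-fold higher (3.59 log2, SE 0.49, edgeR adjusted p = 0.000426). Ptger4, a receptor of its product prostaglandin E2, rose 2.57-fold (edgeR adjusted p = 0.000238). Of the lectin and Fc receptors, Clec4e, Mincle, had 69.1, 76 and 97.9 CPM in treated libraries, against 13.5, 13.2 and 18.8 CPM in control libraries and rose (2.42 log2, SE 0.32, edgeR adjusted p = 0.000332). Clec4n, Dectin 2, had 17, 15.8 and 21.4 CPM in treated libraries, against 33.4, 51.6 and 59.7 CPM in control libraries and fell (-1.41 log2, SE 0.30, edgeR adjusted p = 0.00666). These 2 lectin genes thus went opposite ways, and Clec7a, another lectin gene of the list, was not called. Over the list, 3 of 25 tested members rose (12.0%) and 2 fell (8.00%), near the 10.6% and 8.07% of all tested genes. For this list the replicate block gave 7 up and 5 down. Only 1 fell without treated library 2 or 3, control library 1 or 2 or the libraries numbered 1.

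Among metabolic genes, nucleotide genes gave 8 risers and 1 faller of 32, led by Cmpk2, a mitochondrial nucleotide kinase next to Rsad2 on chromosome 12 (175, 227 and 229 CPM in treated libraries, against 4.42, 11.8 and 3.12 CPM in control libraries; 5.02 log2, SE 0.55, edgeR adjusted p = 9.27e-05). For nucleotide genes, blocking on the replicate number gave 13 up and 4 down, and library totals alone gave 6 up and 5 down. None fell without treated library 2 or 3 or control library 1, 2 or 3. Slc7a2, a transporter of arginine, rose 12.5-fold (2.96 ± 1.25 CPM in treated and 0.225 ± 0.231 CPM in control libraries; edgeR adjusted p = 0.00234), Hk2, the first enzyme of glycolysis, 3.07-fold (edgeR adjusted p = 0.00283) and Hspa5, the chaperone BiP, 1.87-fold (edgeR adjusted p = 0.00176). Of sterol and lipid genes, 2 of 36 tested members rose (5.56%, under the 10.6% of all tested genes) and 3 fell (8.33%, near the 8.07%). Fads1, the Δ5 desaturase of polyunsaturated fatty acids, had 10.4, 12.2 and 12 CPM in treated libraries, against 31.5, 41.9 and 41.5 CPM in control libraries and fell 3.32-fold (-1.73 log2, SE 0.15, edgeR adjusted p = 1.63e-05). Elovl5, an elongase of the same pathway, rose slightly (101 ± 8.60 CPM in treated and 62.4 ± 5.57 CPM in control libraries; 0.70 log2, SE 0.11, edgeR adjusted p = 0.000971). A block for replicate number gave 5 up and 10 down, and scaling by totals alone gave 1 up and 11 down. The oxidative phosphorylation list (1 rose, 4 fell of 38) and the ribosomal protein list (2 and 0 of 49) can be set beside the shares of all genes, 10.6% up and 8.07% down. For oxidative phosphorylation, the replicate block gave 2 up and 7 down, scaling by library totals gave none up and 24 down, and omission of the libraries numbered 1 gave none up and 5 down. None rose without treated library 1 or 2 or control library 1, 2 or 3, none fell without control library 2 and 1 fell without treated library 2 or control library 3. For ribosomal proteins, a fit blocked by replicate number gave 8 up and none down, library totals as the only scaling gave none up and 13 down, and dropping the libraries numbered 1 gave none up and none down. None rose without treated library 2 or control library 1, 2 or 3 and 5 rose without treated library 1.

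Genes of the cell cycle went both ways, 6 up (16.7%) and 5 down (13.9%) of 36, against 10.6% and 8.07% of all tested genes. Ccnd1, Ccnd2, Cdkn1a, Cdkn1b, Plk2 and Mki67 rose, and Ccnb1 (a call lost without the libraries numbered 1), Cdc20, Plk1, Cdkn2c and Rrm2 (a call lost with limma-voom, fitted on WT libraries alone and without treated library 2 or 3 or control library 1 or 2) fell. Ccnd2, a D-type cyclin, had 412, 457 and 562 CPM in treated libraries, against 62.1, 81.1 and 71 CPM in control libraries (2.74 log2, SE 0.26, edgeR adjusted p = 3.62e-05). Cdkn1a, the inhibitor p21, had 894, 1109 and 1426 CPM in treated libraries, against 266, 447 and 465 CPM in control libraries (1.54 log2, SE 0.21, edgeR adjusted p = 0.000307). Cdc20, which starts anaphase, had 5.65, 5.23 and 3.55 CPM in treated libraries, against 14.6, 17.2 and 9.81 CPM in control libraries (-1.54 log2, SE 0.30, edgeR adjusted p = 0.00414). Plk1, a mitotic kinase, had 2.02 ± 1.54 CPM in treated and 8.02 ± 1.83 CPM in control libraries (-2.03 log2, SE 0.49, edgeR adjusted p = 0.014; a call lost without a filter on low counts and without treated library 2). Mki67, a proliferation marker, rose 2.87-fold (367 ± 66.7 CPM in treated and 128 ± 36.3 CPM in control libraries; edgeR adjusted p = 0.000691). Blocking on the replicate number gave 8 up and 12 down, and library totals alone gave 6 up and 16 down. Among its members, 8 fell without control library 3. Of lysosomal genes, 12 of 47 tested members rose and 3 fell, the risers including Slc29a3. A block for replicate number gave 18 up and 10 down, scaling by totals alone gave 4 up and 17 down, and dropping the libraries numbered 1 gave 12 up and 5 down. For these genes, 6 rose without control library 2.

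Ranked by the gain in CPM, the risers were not interferon genes alone. Clic4, a chloride channel protein, had 3205, 4899 and 3991 CPM in treated libraries, against 1114, 1196 and 1194 CPM in control libraries (1.79 log2, SE 0.17, edgeR adjusted p = 2.8e-05; chromosome 4, 135213969 to 135272814). Nr4a3, an orphan nuclear receptor of migratory DCs, had 4724, 4945 and 4409 CPM in treated libraries, against 2155, 1674 and 2066 CPM in control libraries (1.26 log2, SE 0.23, edgeR adjusted p = 0.00309). Tnfaip2, an NF-kB target, had 1889, 1673 and 2275 CPM in treated libraries, against 431, 420 and 452 CPM in control libraries (2.16 log2, SE 0.17, edgeR adjusted p = 8.92e-06). Swap70, which supports DC motility, had 2217, 2633 and 2459 CPM in treated libraries, against 1072, 961 and 1108 CPM in control libraries (1.22 log2, SE 0.14, edgeR adjusted p = 0.000119). Lcp1, L-plastin, and Wnk1, a kinase of ion balance, gained 1.62-fold and 2.13-fold (edgeR adjusted p = 0.00236 and 0.00295) on high starting levels (5672 ± 505 CPM in treated and 3492 ± 298 CPM in control libraries for Lcp1). Apol7c, a pore-forming apolipoprotein of DC phagosomes, had 1475, 2498 and 1968 CPM in treated libraries, against 399, 529 and 454 CPM in control libraries (2.10 log2, SE 0.50, edgeR adjusted p = 0.0132), with spread within both groups, and was a call lost without a filter on low counts and without control library 1 or 3. Per length, mean levels were 613 RPKM in treated and 178 RPKM in control cells for Clic4, 390.4 RPKM in treated and 87.2 RPKM in control cells for Tnfaip2 and 961 RPKM in treated and 224 RPKM in control cells for Apol7c.

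The genes that fell had a median level of 13.4 CPM over the WT libraries, against 90.0 CPM for those that rose, and included receptors, transcription factors and signalling adaptors. Chst2, a sulfotransferase, had 0.283, 0.930 and 0.474 CPM in treated libraries, against 6.60, 4.26 and 8.00 CPM in control libraries (-3.45 log2, SE 0.43, edgeR adjusted p = 0.000181). Map1a, a microtubule protein, had 2.40, 2.32 and 7.20 CPM in treated libraries, against 10.6, 21.3 and 34.2 CPM in control libraries (-2.45 log2, SE 0.54, edgeR adjusted p = 0.00877). Tifab, which restrains TRAF6 signalling, had 6.29, 7.21 and 6.07 CPM in treated libraries, against 37.9, 31 and 25.1 CPM in control libraries (-2.27 log2, SE 0.25, edgeR adjusted p = 7.21e-05). Frat1 and Fzd1, both of the WNT pathway, fell 4.89-fold and 4.59-fold (edgeR adjusted p = 6.88e-05 and 0.00215). Rab7b, a GTPase of late endosomes, had 16.4, 16.8 and 8.58 CPM in treated libraries, against 59.9, 82 and 47.6 CPM in control libraries (-2.19 log2, SE 0.26, edgeR adjusted p = 0.000171). Cited4, a transcriptional cofactor, had 3.49 ± 0.978 CPM in treated and 15.1 ± 4.19 CPM in control libraries (-2.11 log2, SE 0.33, edgeR adjusted p = 0.00109). In none of these did a treated value reach a control value. Hlx, a homeobox factor, fell 2.42-fold (46.5 ± 11.9 CPM in treated and 113 ± 21.9 CPM in control libraries; edgeR adjusted p = 0.00133). Gna15, a G protein subunit of blood cells, fell 5.51-fold (0.615 ± 0.574 CPM in treated and 3.41 ± 0.627 CPM in control libraries; edgeR adjusted p = 0.00849), and Rgs3 2.27-fold (edgeR adjusted p = 0.0106), while Rgs1 rose. The largest falls in CPM were modest in fold: Arhgap45 had 324, 292 and 309 CPM in treated libraries, against 486, 548 and 507 CPM in control libraries (-0.74 log2, SE 0.11, edgeR adjusted p = 0.000755). Pip5k1c, a lipid kinase, had 243, 217 and 196 CPM in treated libraries, against 378, 457 and 373 CPM in control libraries (-0.88 log2, SE 0.14, edgeR adjusted p = 0.00121). Fut4, a fucosyltransferase, had 48.6, 47.9 and 77.5 CPM in treated libraries, against 113, 143 and 157 CPM in control libraries (-1.25 log2, SE 0.19, edgeR adjusted p = 0.000755).

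**Figure D4:**
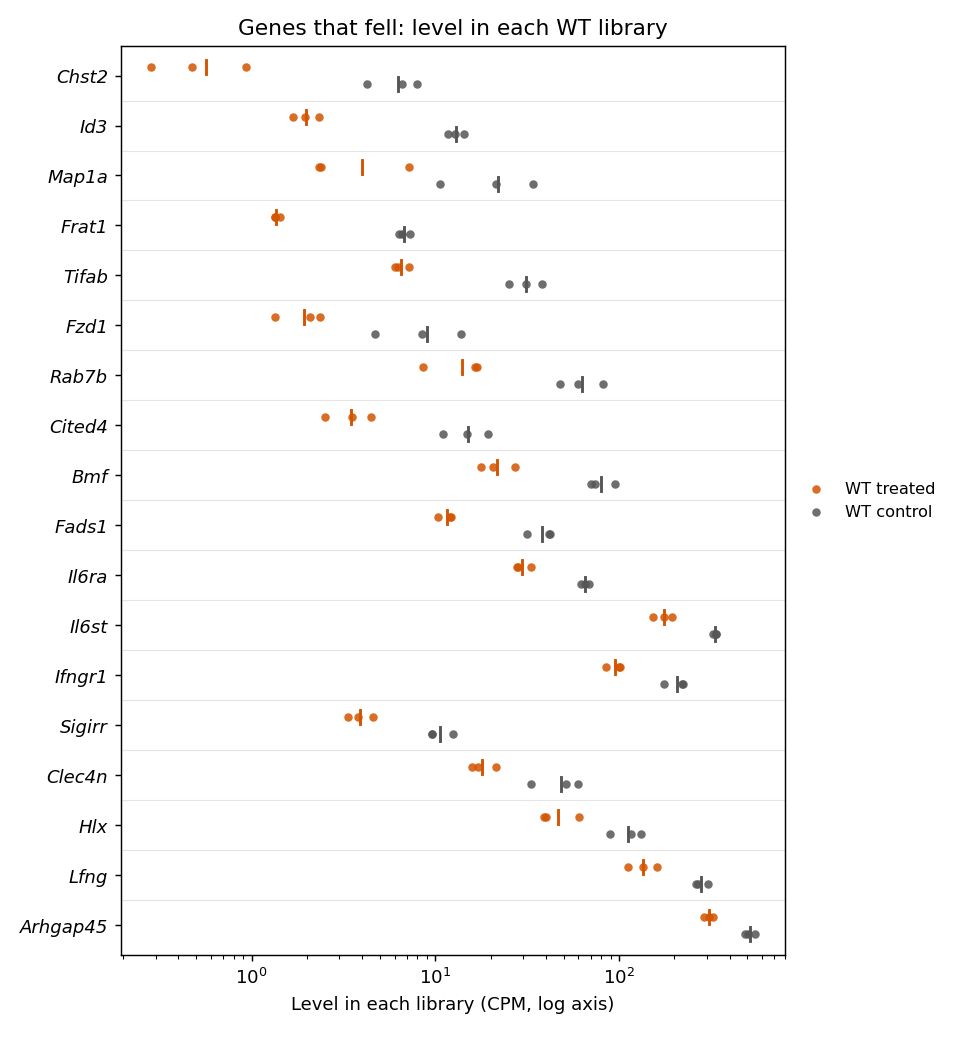
Level in each WT library (CPM, log axis) of 18 genes that fell, each point 1 library and each bar the mean of 3, treated above control in every row. In all 18 rows the 3 treated points lie to the left of the 3 control points.

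By the transcription factor families given in the deposited table, members of the Rel homology (5 of 9 tested rose, none fell), IRF (5 of 9 rose, 1 fell), SAND domain (5 of 8 rose, none fell) and bZIP (10 of 44 rose, 1 fell) families were called upward more often than the 10.6% of all genes. The share was also above 10.6% in the MBD (4 of 9 rose, 2 fell) and ARID (4 of 14 rose, 0 fell) families. It was above it too in the ETS (4 of 18 rose, 0 fell) and Fork (3 of 15 rose, 2 fell) families. In the ZBTB (5 of 42 rose, 4 fell) and bHLH (5 of 41 rose, 6 fell) families it was near 10.6%. It was near it too in the homeobox (4 of 34 rose, 2 fell) and HMG (3 of 30 rose, 2 fell) families. Of 9 GATA factors 1 rose and 0 fell. The zinc finger C2H2 family went the other way, with 24 of 394 up (6.09%) and 53 down (13.5%, against 8.07% of all genes). E2F (0 of 10 rose, 2 fell) and MYB (1 of 23 rose, 3 fell) factors had few calls, more of them down. Of 12 THR-like factors 1 rose (8.33%, near the share of all genes) and 2 fell (16.7%). Prdm1, which encodes Blimp-1, rose 2.86-fold (111, 101 and 126 CPM in treated libraries, against 32.5, 35 and 50.7 CPM in control libraries; 1.52 log2, SE 0.17, edgeR adjusted p = 6.88e-05) within a list of DC transcription factors in which 13 of 42 tested members rose and 3 fell. The replicate block gave 20 up and 3 down, and scaling by library totals gave 6 up and 7 down. Of the list, 7 rose without control library 2 and 1 fell without treated library 2.

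Calls among noncoding RNAs stand beside those over all genes tested, of which 10.6% rose and 8.07% fell. Of 323 tested lincRNAs 20 (6.19%) rose and 12 (3.72%) fell, and of 350 antisense transcripts 25 (7.14%) rose and 12 (3.43%) fell; whether reads were counted by strand is not given in the sources used here, so reads of antisense genes and of their partners cannot be told apart. Of 303 genes of the class TEC, single-exon models awaiting experiments, 31 (10.2%) rose and 3 (0.990%) fell, with a median of 0.43 log2. Gm16712 had 33.6, 36.3 and 36 CPM in treated libraries, against 2.61, 2.36 and 3.23 CPM in control libraries (3.69 log2, SE 0.29, edgeR adjusted p = 8.9e-06; chromosome 17, 55954771 to 55959381). Gm20559 had 26.2, 25.3 and 23.3 CPM in treated libraries, against 2.55, 3.28 and 0.737 CPM in control libraries (3.49 log2, SE 0.55, edgeR adjusted p = 0.0012). A930037H05Rik rose 9.35-fold (6.57 ± 0.354 CPM in treated and 0.696 ± 0.319 CPM in control libraries; edgeR adjusted p = 2.72e-05). In Gm16712 and Gm20559 all treated values lay far above all control values.

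Markers of DC subtypes and of other spleen cells were set beside the response, and their part in it was not tested. Of 22 cDC1 genes, 7 rose and 3 fell, and their sum was 3427 to 5035 CPM in treated and 2399 to 2998 CPM in control libraries. The largest rises were in Ifi205 and Tlr3, which also stand in the lists of nucleic acid sensors and Toll-like receptors. Btla and Ly75 rose 2.90-fold and 2.01-fold (edgeR adjusted p = 0.000561 and 0.00268). Cd8a and Irf8 rose too, but both calls were lost without a filter on low counts and without treated library 2 or any 1 control library. Snx22 fell (-1.65 log2, SE 0.24, edgeR adjusted p = 0.000622), as did Rab7b and Tlr11. Xcr1 and Clec9a, the defining genes, went unlike ways: Xcr1 had 92.2, 185 and 88.4 CPM in treated cells and 54.2, 95.1 and 59.8 CPM in control cells (0.81 log2, SE 0.32, edgeR adjusted p = 0.0991; with the replicate block, edgeR adjusted p = 0.000383, so that it then rose). Clec9a had 24.2, 47.8 and 22.2 CPM in treated cells and 34.6, 60.4 and 38.6 CPM in control cells (-0.51 log2, SE 0.32, edgeR adjusted p = 0.286; with the replicate block, edgeR adjusted p = 0.00225, so that it then fell). In both groups number 2 had the highest level of each. A fit blocked by replicate number gave 10 up and 7 down, and library totals as the only scaling gave 5 up and 5 down. In this list 3 rose without control library 3, 4 rose without treated library 2 or control library 1 or 2 and 5 fell without treated library 2. Of 24 tested cDC2 genes 3 rose (12.5%) and 2 fell (8.33%), near the 10.6% and 8.07% of all tested genes. The cDC2 list summed to 3541 to 4094 CPM in treated and 2766 to 2921 CPM in control libraries. Sirpa had 247, 209 and 259 CPM in treated cells and 230.2, 204 and 219 CPM in control cells (0.13 log2, SE 0.27, edgeR adjusted p = 0.777). For cDC2 genes, blocking on the replicate number gave 4 up and 8 down, and library totals alone gave 3 up and 7 down. None rose without control library 2, 1 rose without control library 3, none fell without treated library 2 or control library 3 and 1 fell without treated library 1 or 3 or control library 1. Of 13 plasmacytoid DC genes all were detected and 11 tested, with a sum of 526 to 624 CPM in treated and 244 to 274 CPM in control libraries; the 3 that rose, Irf7, Bst2 and Runx2, are also expressed by other cells. Siglech had 51 counts over treated and 49 over control libraries.

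No B cell or T cell gene was called (0 of 15 and 0 of 14 tested; 0 had an unadjusted p under 0.05), and of 7 tested NK genes Klrd1 fell (-0.62 log2, SE 0.17, edgeR adjusted p = 0.0274; a call lost without treated library 2 or 3 or control library 2 or 3). The B cell sum was 439 to 762 CPM in treated and 351 to 738 CPM in control libraries, and Cd79a, a part of the B cell receptor, had 245, 26 and 46 counts in treated and 308, 30 and 29 in control libraries, so that number 1 was highest in both groups. With the replicate block 1 T cell gene, 3 neutrophil genes and 1 erythroid gene rose. The T cell sum was 332 to 484 CPM in treated and 281 to 494 CPM in control libraries, with 40 counts of Cd3e over treated and 38 over control libraries. The NK sum was 95.6 to 114 CPM in treated and 127 to 147 CPM in control libraries, and Ncr1 had 0 counts over treated and 2 over control libraries. Macrophage genes, all 19 detected, summed to 639 to 1010 CPM in treated and 830.2 to 1371 CPM in control libraries, with 2 risers and 1 faller; the red pulp factor Spic had 70.2, 94.6 and 98.1 CPM in treated cells and 93.7, 116 and 135 CPM in control cells (-0.39 log2, SE 0.37, edgeR adjusted p = 0.495; with the replicate block, edgeR adjusted p = 0.0137, so that it then fell). The shares of macrophage genes called, 10.5% up and 5.26% down, lay at or under the 10.6% and 8.07% of all tested genes. For macrophage genes, a block for replicate number gave 5 up and 6 down, and scaling by totals alone gave none up and 3 down. None rose without treated library 2 or 3 or control library 2 or 3, 1 rose without treated library 1 or control library 1, none fell without treated library 2 or 3 or control library 2 and 2 fell without treated library 1 or control library 3. Monocyte genes, all 17 detected, summed to 984 to 1314 CPM in treated and 777 to 1069 CPM in control libraries, with 64 counts of Ly6c2 over treated and 87 over control libraries. Of 16 tested monocyte genes 1 rose (Nr4a1) and 1 fell (Cx3cr1), 6.25% each, against 10.6% and 8.07% of all tested genes. With the replicate block 3 rose and 6 fell, and by library totals alone none rose and 3 fell. None rose without treated library 3 or control library 1 or 2. Neutrophil genes, all 15 detected, summed to 22.7 to 28.7 CPM in treated and 14.6 to 19.8 CPM in control libraries with none of 14 called, and Ly6g had 5 counts over treated and 2 over control libraries. Erythroid genes, 15 of 17 detected, summed to 54.3 to 72.9 CPM in treated and 58.6 to 65.6 CPM in control libraries, with 24 counts of Alas2 over treated and 31 over control libraries. In the erythroid and platelet list, 1 of 16 tested members fell, Ppbp, with the limits given above. Stroma genes, 11 of 14 detected, summed to 18.5 to 29 CPM in treated and 7.49 to 17.2 CPM in control libraries, with Col1a1 at 0 counts over treated and 8 over control libraries. The stroma gene called was Kdr, VEGF receptor 2, which had 9.61, 15.2 and 10.5 CPM in treated libraries, against 1.65, 2.77 and 1.13 CPM in control libraries (2.66 log2, SE 0.42, edgeR adjusted p = 0.00121). Cdh5, another endothelial gene, had 10 counts over treated and 9 over control libraries.

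The KO cells gave a second response to the same bacteria. No gene differed between the WT and KO responses at an edgeR adjusted p under 0.05 (0.00% of 14293; 608 had an unadjusted p under 0.05). DESeq2 called 7, limma-voom 0, and edgeR with the replicate block 41. Of the 1522 genes that rose in WT cells 1514 had the same sign in KO cells, 1189 also rose there and 1 fell there. Of the 1154 that fell, 1145 had the same sign in KO cells, 779 also fell there and 0 rose. The shares of all tested genes that rose or fell in KO cells are not given here, so the overlaps have no baseline beside them. The groups share no library, but these counts say nothing of differences in size. Il27 rose by 6.52 log2 in WT and 3.59 in KO cells, a difference of -2.93 (edgeR adjusted p = 0.384; with the replicate block, edgeR adjusted p = 0.0246).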

How the data were processed

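RNA sequencing of 12 libraries of mouse splenic DCs was used, 3 per group of genotype and treatment. The authors deposited 1 table of raw read counts per gene with gene lengths, coordinates and biotypes; per the submitters' processing notes, CASAVA 1.8, HISAT2 (version not given) and mm10 were used. Neither the tool that counted reads, nor whether it used strand, nor the release of the annotation is given in the sources used here. From the counts, edgeR 4.0.16 (R 4.3.3) fitted all 12 libraries as 4 groups with TMM factors, its default filter on low counts and the robust quasi-likelihood test, and p-values were adjusted by Benjamini-Hochberg over the 14293 genes tested at a threshold of 0.05. The SE is the absolute log2 difference divided by the square root of F. CPM used TMM-scaled library sizes, and RPKM the deposited gene lengths. The fit was tested on simulated data. The replicate numbers come from the titles. Same-numbered libraries deviated together (r of 0.226 to 0.53 in all 6 pairs, each above 0.1), so the number was also fitted as a block within genotype.

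The members and gene lists (59 lists, 1404 symbols, 1394 found, 1272 tested) were chosen with earlier results of these data known. Genes were named by a rule: Slc29a3; the 40 genes with the largest log2 change in each direction, with groups that do not overlap and at least 5 CPM in the higher group; the 6 called members of a list with the largest change in each direction and its 3 uncalled members with the highest level; the 20 called genes with the largest CPM difference in each direction; and 20 noncoding genes with at least 1 CPM. Other genes, among them the markers given by counts, Ebi3, Cd80, Cd86 and members of chromosomal runs, were named outside this rule, and all but the markers after their values were seen. Floors of 3 counts and 95% intervals cover counting error only. Alternatives were DESeq2 1.42.0 size factors and its Wald test, upper-quartile factors, library totals, limma-voom (limma 3.58.1), other filters, WT libraries alone, the replicate block and leaving out libraries. Leaving out all libraries numbered 1 was added after seeing the data.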

Additional observations from a re-analysis of the deposited data

How the results depend on the processing

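With edgeR 1522 genes rose and 1154 fell, and no gene was called in the opposite direction under any alternative counted for the WT response. Fits that left out a KO library were not counted for it. Scaled by library totals alone 799 rose and 4225 fell, which moved the share of calls that rose to 15.9%, against 56.9%, and with upper-quartile factors to 43.6%. With the replicate number as a block 2377 rose and 2183 fell. Leaving out 1 WT library, or all libraries numbered 1, gave 912 to 1474 that rose and 597 to 1060 that fell. The highest and lowest came without treated library 1 and control library 2. DESeq2 size factors, the DESeq2 Wald test, limma-voom, the other filters and the WT libraries alone kept both counts within 1.5 times. Genes whose response differed between genotypes numbered 0 with edgeR, 7 with DESeq2, 2 without a filter on low counts and 41 with the replicate block, and 0 to 8 with 1 library left out (8 without KO treated library 1, 2 without KO control library 1, 0 without any other). The ISRE was in 62.5% of promoters of the 50 genes that rose most, 44.4% for 100, 34.6% for 200 and 9.10% for all that rose; of the last 2 sets fewer than 80% of genes had a promoter (153 of 200 and 1110 of 1522). Of 204 genes whose difference is printed, 170 kept call and sign under every counted alternative in which they were tested. A gene that an alternative's filter removed was not checked there. The sign of 2 turned with library totals alone, Cd74 (-0.0114 log2) and Sirpa (-0.18 log2). Of 2006 list counts under an alternative, 431 moved by over 1.5 times. The cause of these moves was not tested. Genes with few counts, such as Hamp and Ppbp, are limited by counting error.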
